A study of Homo sapiens with 14 samples.

Results

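The 4 ID genes (ID1, ID2, ID3 and ID4), the inhibitory SMAD genes SMAD6 and SMAD7, and BAMBI were followed in cartilage pellets made from human embryonic stem cells. They were chosen by symbol as feedback and effector genes of bone morphogenetic protein (BMP) signalling, 7 of the 60587 genes in each deposited table. All 7 were among the 17838 genes that passed the filter on low counts. The starting cells were of the embryonic line WA01 (H1), kept in chondrogenic medium, with no other treatment named in the labels. Whole pellets were profiled by RNA sequencing at day 21 (n = 4), day 30 (n = 5) and day 45 (n = 5) of culture. All samples come from this 1 line, and there is no sample of undifferentiated cells or of another medium. Whether replicates were grown as separate cultures is not stated in the labels, so p-values measure only the spread among these libraries, and part of it may be technical.

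BMP ligands bind paired receptors that phosphorylate SMAD1, SMAD5 and SMAD9, which enter the nucleus with SMAD4 and switch on target genes. The ID genes are among the most direct of these targets, and their proteins are helix-loop-helix factors that lack a DNA-binding region and hold E proteins off DNA. SMAD6, SMAD7 and BAMBI are induced by the same signal and damp it, SMAD6 and SMAD7 at the receptors and SMADs, and BAMBI as a receptor-like decoy without a kinase. BMP signalling is needed for cartilage to form and for its cells to enlarge, as known from mouse genetics.

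The libraries held 18183776 to 33660704 expected counts, and the 7 genes had from 229 counts (SMAD6) to 6317 counts (ID3) in a library. CPM, read counts scaled to the size of each library with TMM factors, are used to compare days, and TPM, which are also scaled to transcript length, to compare genes. Every chondrocyte marker on the list was expressed, with a summed level of 45155 to 58291 CPM at day 21, 105564 to 249889 CPM at day 30 and 201155 to 315177 CPM at day 45. COL2A1 and ACAN made up most of that sum. Of the 12 markers 2 rose and 4 fell at day 45 against day 30, where 27.6% of all genes tested were higher and 28.7% lower. Among those that fell was MATN1, at 73.1 to 134 CPM at day 45, against 690 to 1152 CPM at day 30. Of the 6 stem cell markers, NANOG, LIN28A and TDGF1 were at 0 in all day 45 libraries, and the sum of the list there was 0.353 to 1.43 CPM, mostly DPPA4. Of the 8 endothelial markers, CDH5 and EMCN were at 0 at day 45 and PECAM1 at most at 0.0785 CPM, while ERG, also made by cartilage, had 133 to 170 CPM, TIE1 7.79 to 17.6 CPM and KDR 7.20 to 10.6 CPM. TIE1 and TEK rose at day 45 against day 21, and ERG and KDR fell. TEK was barely detected, at 0.0259 to 0.333 CPM at day 21 and 0.375 to 1.29 CPM at day 45. Of the 4 blood markers, CD68 had 0.760 to 1.47 CPM at day 21, 5.19 to 12.5 CPM at day 30 and 45.3 to 64.9 CPM at day 45, with PTPRC at most at 0.115 CPM in any library and HBB at 0 at day 45. The part of these markers in the results below was not tested. Day 30 replicates 3, 4 and 5 stood apart, since across genes their deviation correlated with effective transcript length at Spearman rho of -0.43, -0.52 and -0.47, against -0.01 and -0.07 in replicates 1 and 2. The correlation was 0.14 to 0.26 in the day 21 libraries and 0.12 to 0.19 in those of day 45, above every day 30 library. Day 45 replicate 1 is given as 30 days in its treatment label, and its title decided the group. In this library the 4 markers of hypertrophic (enlarged late) chondrocytes summed to 4102 CPM. The day 30 libraries had 323 to 446 CPM and the other day 45 libraries had 1573 to 2757 CPM. The 20 immediate early genes summed to 1271 CPM in day 45 replicate 1. They summed to 517 to 648 CPM at day 30 and 980 to 1246 CPM in the other day 45 libraries. Day 45 replicate 1 was thus the highest library of all on both sums. In bulk samples, fewer cells of a type and less RNA per cell cannot be told apart.

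ID2 had the largest change of the 7 genes between day 21 and day 45. The gene lies on chromosome 2 (ENSG00000115738, 8678845 to 8684453, plus strand, GRCh38 with GENCODE 29), and its protein binds E proteins. ID2 stood at 23.7, 23.7, 22.6 and 26.9 CPM in the day 21 libraries, at 39.1, 42.4, 44.4, 46.4 and 36.0 CPM at day 30, and at 92.6, 78.8, 102, 81.3 and 82.2 CPM at day 45. In CPM no 2 days overlapped, and each later day was higher than the one before. ID2 averaged 87.4 ± 9.75 CPM at day 45 (SD, n = 5), against 24.2 ± 1.85 CPM at day 21 (SD, n = 4). This is a log2 fold change of 1.85 ± 0.11 (SE; edgeR's quasi-likelihood test with Benjamini-Hochberg adjustment, adjusted p = 1.65e-10).

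Both steps of ID2 were called on counts with TMM scaling, the earlier one not on log2(TPM + 1) (0.16, adjusted p = 0.213). The log2 fold change was 1.07 ± 0.10 at day 45 against day 30 (SE; edgeR adjusted p = 1.68e-07) and 0.78 ± 0.10 at day 30 against day 21 (SE; adjusted p = 7.00e-06). On the deposited TPM the day 30 libraries, at 74.5 to 95.5 TPM, overlapped the day 21 libraries at 66.1 to 87.8 TPM, while the day 45 libraries stood apart at 191 to 249 TPM. The effective length that the deposited tables give for ID2 moved beside this, at 639 ± 74.1 bases at day 21, 716 ± 70.3 bases at day 30 and 620 ± 38.7 bases at day 45 (mean ± SD, n = 4, 5 and 5). ID2 shares bases with the antisense gene ID2-AS1, which had 40 to 87 counts per library, and the kit does not mark strand. Immediate early genes, which can respond to handling, moved with day as well, and whether handling played a part was not tested. Their sum over 20 genes was 425 to 463 CPM at day 21. It was 517 to 648 CPM at day 30 and 980 to 1271 CPM at day 45. The 4 markers of hypertrophic chondrocytes, enlarged late cartilage cells, summed to 31.3 to 59.8 CPM, 323 to 446 CPM and 1573 to 4102 CPM at the same days. The part of either list in the ID2 result was not tested.

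**Figure D1:**
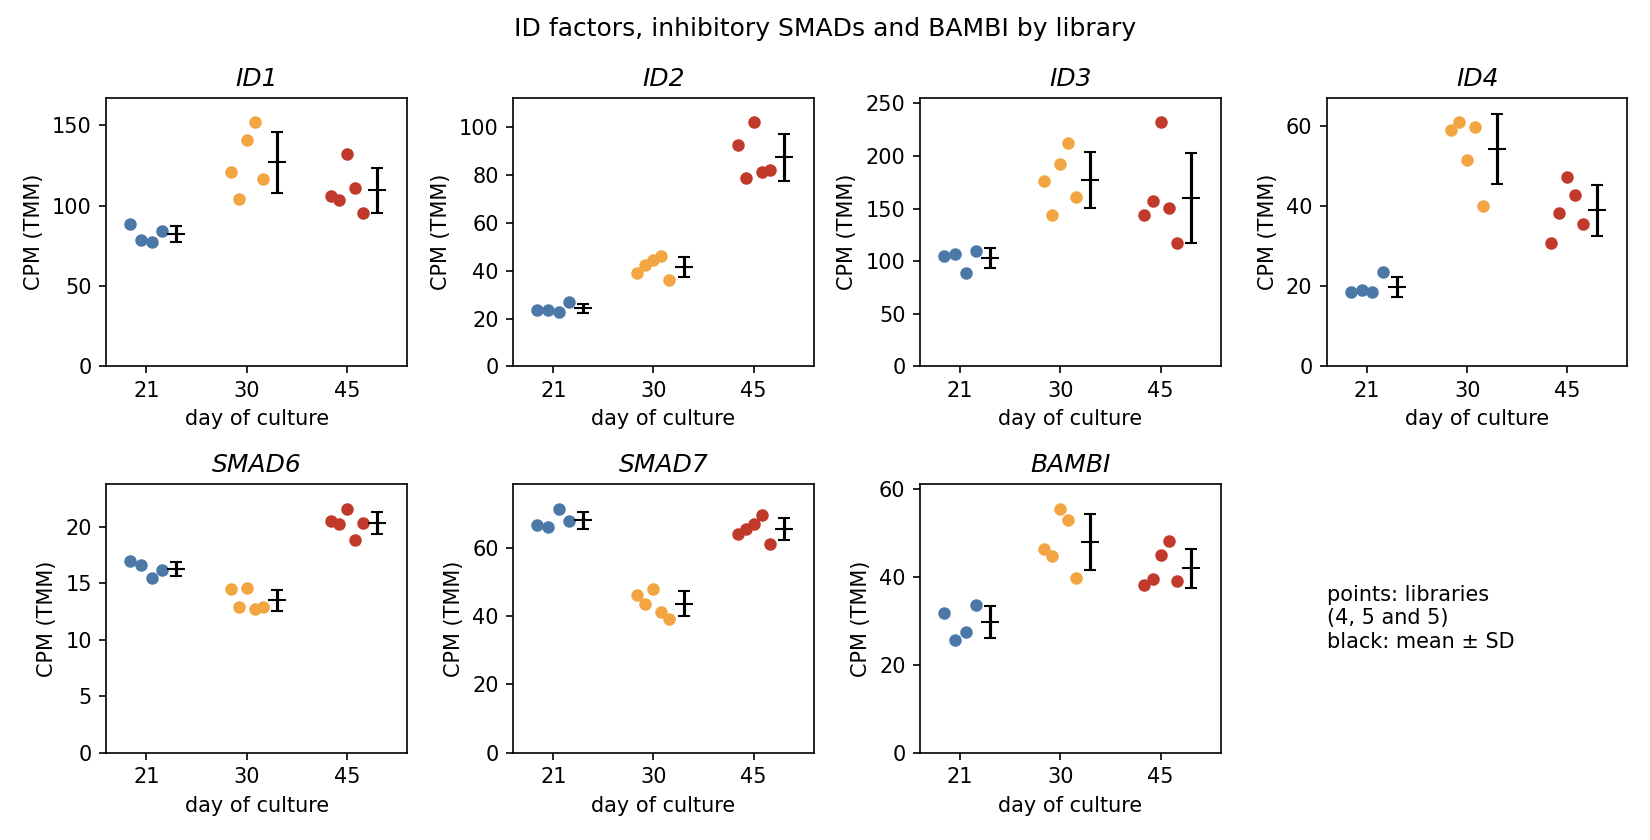
Level of each gene in each library (points; CPM after TMM scaling, linear axes from 0) by day of culture, with the mean ± SD in black (n = 4, 5 and 5). ID2 climbed at both steps, ID4 was highest at day 30, and SMAD7 was lowest at day 30.

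ID4 (ENSG00000172201; chromosome 6, 19837386 to 19840684, plus strand) peaked at day 30. In mice this ID gene is known from studies of the brain and of bone and fat cell differentiation. ID4 had 18.5, 19.1, 18.4 and 23.6 CPM at day 21, 59.1, 60.9, 51.6, 59.8 and 40.0 CPM at day 30, and 30.8, 38.2, 47.3, 42.8 and 35.6 CPM at day 45. In CPM days 30 and 45 were both above day 21 in every library, and days 30 and 45 overlapped. In TPM the day 45 libraries, at 11.9 to 19.1, overlapped those of day 21, at 9.96 to 12.7. The log2 fold change was 1.45 ± 0.14 at day 30 against day 21 (SE; edgeR adjusted p = 3.12e-07), the largest of the 7 genes at that step. The value was -0.48 ± 0.13 at day 45 against day 30 (SE; edgeR adjusted p = 0.00497), a call that ended when day 45 replicate 1 was moved to day 30 (adjusted p = 0.182). At day 45 ID4 was still above its day 21 level, by 0.97 ± 0.14 (log2, SE; edgeR adjusted p = 1.50e-05). The antisense gene AL022068.1 overlaps ID4 and had 2 to 33 counts per library.

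ID1 (ENSG00000125968; chromosome 20, 31605283 to 31606515, plus strand) and ID3 (ENSG00000117318; chromosome 1, 23557918 to 23559794, minus strand) are the ID genes most used as readouts of BMP signalling. ID1 had 88.8, 78.9, 77.3 and 84.3 CPM at day 21, 121, 104, 141, 152 and 116 CPM at day 30, and 106, 104, 132, 111 and 95.2 CPM at day 45. ID3 had 105, 107, 88.7 and 110 CPM at day 21, 177, 144, 193, 212 and 161 CPM at day 30, and 144, 158, 232, 150 and 117 CPM at day 45. For both genes all libraries of days 30 and 45 lay above those of day 21 in CPM, and days 30 and 45 overlapped. In TPM both later days overlapped day 21 for both genes. Day 45 replicate 3 was the highest day 45 library for both.

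At day 30 against day 21, ID1 rose by 0.62 ± 0.12 (log2, SE; edgeR adjusted p = 2.44e-04) and ID3 by 0.79 ± 0.16 (SE; adjusted p = 5.73e-04). For day 45 against day 21 the values were 0.41 ± 0.12 in ID1 (SE; edgeR adjusted p = 0.00571) and 0.64 ± 0.16 in ID3 (SE; adjusted p = 0.00251). Neither was called at day 45 against day 30, with -0.21 ± 0.11 for ID1 (SE; edgeR adjusted p = 0.106) and -0.15 ± 0.15 for ID3 (SE; adjusted p = 0.422). Without day 45 replicate 3 both were called there, at an adjusted p of 0.0326 for ID1 and 0.0386 for ID3, and ID1 also without day 30 replicate 2 (adjusted p = 0.0346) and with limma voom and sample weights (-0.27). With an offset for transcript length both lay above 0, at 0.0633 for ID1 and 0.14 for ID3, and neither was called.

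These sizes depended on how libraries were scaled and on transcript length. ID1, ID2 and ID3 have mean effective lengths of 781, 660 and 727 bases, and the 2234 tested genes of 500 to 1000 bases had a median log2 change of 0.36 at day 30 against day 21, -0.29 at day 45 against day 30 and 0.03 at day 45 against day 21. With an offset for length, the day 30 against day 21 values were 0.28 for ID1, 0.42 for ID2 and 0.43 for ID3, still called. On log2(TPM + 1), where the median of all genes was -0.35 at day 30 against day 21 and -0.34 at day 45 against day 21 (0.02 and -0.05 with TMM), ID1 and ID3 were not called in either comparison and ID2 was not called in the first. Relative to that median, ID1 stood at 0.46, ID2 at 0.51 and ID3 at 0.65 at day 30 against day 21, and ID1 at 0.31 and ID3 at 0.50 at day 45 against day 21. ID2 at day 45 against day 21 was called on every scale tried, at 1.43 on log2(TPM + 1), or 1.77 relative to the median.

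**Figure D2:**
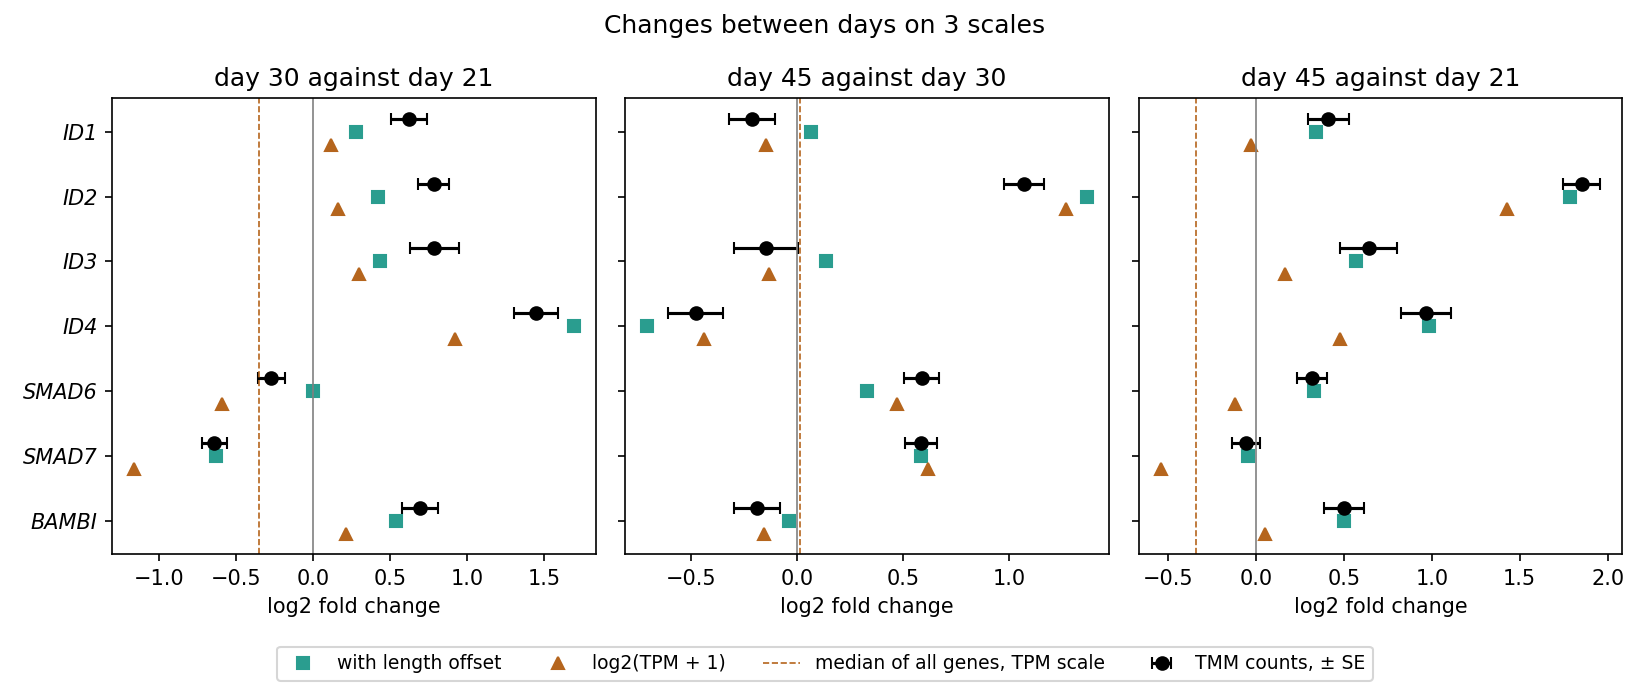
Log2 fold change of each gene between days, from edgeR on counts with TMM scaling (circles, ± SE), with an offset for effective length (squares) and from limma on log2(TPM + 1) (triangles); the dashed line is the median of all genes on the TPM scale. ID2 at day 45, ID4 at day 30 and SMAD7 at day 30 keep their direction on the 3 scales, whereas ID1 and SMAD6 at day 45 against day 21 lie below 0 on the TPM scale, at -0.03 and -0.12.

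Per length, ID3 was the most abundant of the 7 genes by mean at every day and SMAD6 the least. At day 21 the order of mean TPM was ID3 (289), ID1 (217), ID2 (77.9), SMAD7 (65.0), BAMBI (40.6), ID4 (11.1) and SMAD6 (8.66), and of these neighbours only ID2 and SMAD7 overlapped. At day 30 it was ID3 (358), ID1 (236), ID2 (87.0), BAMBI (47.4), SMAD7 (28.95), ID4 (22.3) and SMAD6 (5.47), with an overlap of SMAD7 and ID4. At day 45 it was ID3 (332), ID1 (213), ID2 (212), SMAD7 (44.4), BAMBI (42.3), ID4 (16.03) and SMAD6 (7.91 TPM), where ID3 overlapped ID1, ID1 overlapped ID2 and SMAD7 overlapped BAMBI.

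Within the ID family the balance shifted toward ID2 at day 45. ID2 made up 13.1% ± 1.28 of the summed TPM of the 4 genes at day 21, 12.4% ± 0.901 at day 30 and 27.6% ± 2.72 at day 45 (mean ± SD, n = 4, 5 and 5). The ratio of ID2 to ID1 in TPM was 0.361 ± 0.0498 at day 21, 0.370 ± 0.0294 at day 30 and 0.996 ± 0.0915 at day 45 (SD, n = 4, 5 and 5). A ratio within a library shows unequal change and does not depend on how libraries are scaled, although the effective length of ID2 enters it. ID3 over ID1 was 1.34 ± 0.103, 1.52 ± 0.0326 and 1.54 ± 0.210 at the same days. The summed TPM of the family was 595 ± 13.2 at day 21, 702 ± 71.4 at day 30 and 773 ± 135 at day 45, with the libraries of day 45 spread from 636 to 998 TPM.

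**Figure D3:**
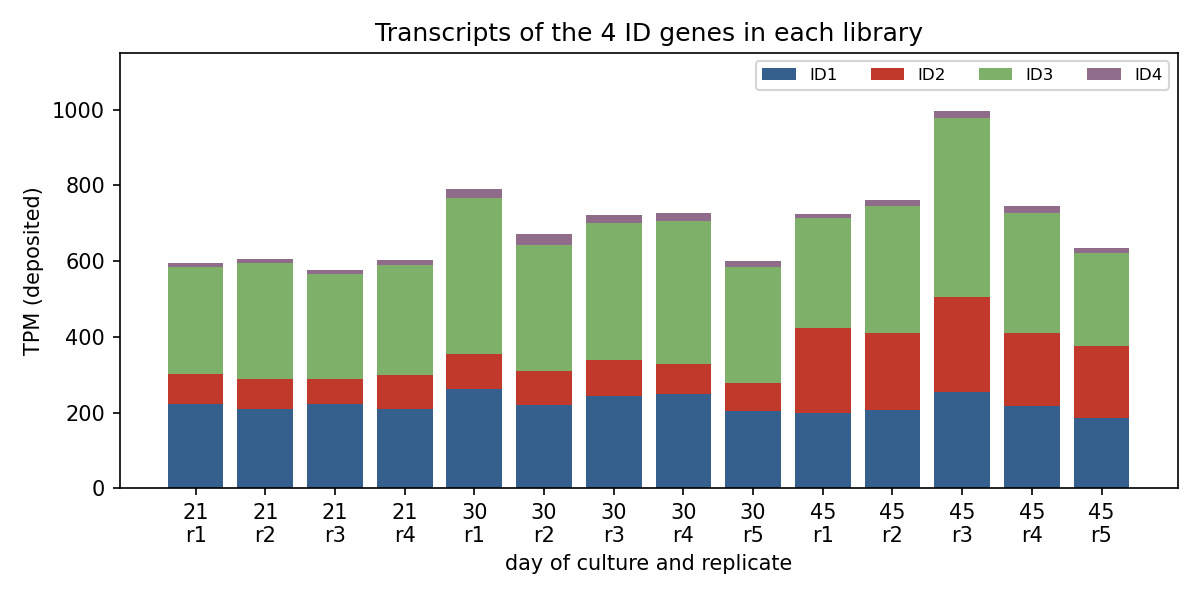
Deposited TPM of ID1, ID2, ID3 and ID4 stacked for each library (r is the replicate number). The ID2 block takes 24.97% to 30.96% of the stack in the day 45 libraries, 11.2% to 13.3% at day 30 and 11.5% to 14.6% at day 21, and day 45 replicate 3 has the tallest stack.

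SMAD7 (ENSG00000101665; chromosome 18, 48919853 to 48952052, minus strand), an inhibitor of both BMP and TGF-beta receptors, was lowest at day 30. SMAD7 had 66.6, 66.2, 71.4 and 67.8 CPM at day 21, 46.2, 43.5, 48.0, 41.2 and 39.1 CPM at day 30, and 63.9, 65.4, 66.9, 69.6 and 61.2 CPM at day 45. In CPM all day 30 libraries lay below all others, and days 21 and 45 overlapped. In TPM days 21 and 45 did not overlap, at 60.2 to 70.4 and 39.1 to 48.9 TPM. The log2 fold change was -0.64 ± 0.08 at day 30 against day 21 (SE; edgeR adjusted p = 4.42e-06) and 0.59 ± 0.08 at day 45 against day 30 (SE; adjusted p = 8.54e-06). Day 45 against day 21 gave -0.06 ± 0.08, which was not called (SE; edgeR adjusted p = 0.568). On log2(TPM + 1) that last comparison was called at -0.54, or -0.20 relative to the median of all genes.

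SMAD6 (ENSG00000137834; chromosome 15, 66702228 to 66782848, plus strand), which acts mainly on BMP receptors and SMAD1, was also lowest at day 30, on a lower level. SMAD6 had 16.95, 16.6, 15.5 and 16.2 CPM at day 21, 14.5, 12.9, 14.6, 12.7 and 12.9 CPM at day 30, and 20.5, 20.2, 21.6, 18.9 and 20.4 CPM at day 45. In CPM no 2 days overlapped, with day 30 lowest and day 45 highest. SMAD6 rose by 0.59 ± 0.08 (log2) at day 45 against day 30 (SE; edgeR adjusted p = 1.57e-05). The other changes were smaller, at -0.27 ± 0.09 for day 30 against day 21 (SE; edgeR adjusted p = 0.0135) and 0.32 ± 0.09 for day 45 against day 21 (SE; adjusted p = 0.00419). The day 30 against day 21 call ended with the length offset (-0.00126, adjusted p = 0.992), without day 30 replicates 3, 4 and 5 (adjusted p = 0.0620) and with day 45 replicate 1 placed at day 30 (adjusted p = 0.350). The day 45 against day 21 value was -0.12 and not called on log2(TPM + 1), or 0.22 relative to the median, and that call also ended without the low-count filter and with day 45 replicate 1 placed at day 30. The ratio of SMAD7 to SMAD6 in TPM was 7.53 ± 0.607 at day 21, 5.30 ± 0.751 at day 30 and 5.62 ± 0.462 at day 45 (mean ± SD, n = 4, 5 and 5).

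BAMBI (ENSG00000095739; chromosome 10, 28677342 to 28682939, plus strand) had a profile like that of ID1 rather than that of the inhibitory SMADs. BAMBI had 31.7, 25.7, 27.4 and 33.5 CPM at day 21, 46.3, 44.6, 55.4, 52.9 and 39.6 CPM at day 30, and 38.2, 39.3, 44.8, 48.0 and 38.9 CPM at day 45. All libraries of days 30 and 45 were above those of day 21 in CPM, and days 30 and 45 overlapped. In TPM both later days overlapped day 21. The log2 fold change was 0.69 ± 0.12 at day 30 against day 21 (SE; edgeR adjusted p = 8.92e-05) and 0.50 ± 0.12 at day 45 against day 21 (SE; adjusted p = 0.00129). Between days 30 and 45 BAMBI was not called, at -0.19 ± 0.11 for day 45 against day 30 (SE; edgeR adjusted p = 0.143). On log2(TPM + 1) BAMBI was called in neither of the comparisons with day 21, at 0.56 and 0.39 relative to the median.

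Counted together, 7 of the 7 genes were called at day 30 against day 21, 5 higher and 2 lower, where 54.4% of all genes tested were called, 27.2% higher and 27.1% lower. At day 45 against day 30, 4 were called, 3 higher and 1 lower, against 56.3% of all genes, 27.6% higher and 28.7% lower. At day 45 against day 21, 6 were called, all higher, against 57.7% of all genes, 27.1% higher and 30.5% lower. The shares of all genes are so high that a call by itself says little about these 7. The test of the later change minus the earlier change called 6 of the 7, 2 positive and 4 negative, against 52.7% of all genes, 25.3% positive and 27.5% negative.

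That difference was largest for ID4, at -1.93 ± 0.23 (log2, SE; edgeR adjusted p = 4.02e-06), and SMAD7, at 1.23 ± 0.14 (SE; adjusted p = 2.82e-06). It was 0.86 ± 0.15 for SMAD6 (SE; edgeR adjusted p = 1.37e-04), -0.84 ± 0.19 for ID1 (SE; adjusted p = 0.00147), -0.93 ± 0.26 for ID3 (SE; adjusted p = 0.00656) and -0.88 ± 0.19 for BAMBI (SE; adjusted p = 9.34e-04). With TMM scaling ID2 was the exception, at 0.29 ± 0.17 and not called (SE; edgeR adjusted p = 0.163). With the length offset the ID2 value was 0.95 and called (edgeR adjusted p = 3.83e-04). On log2(TPM + 1) it was 1.11, or 0.74 relative to the median of all genes, and also called (limma adjusted p = 9.68e-05). With the length offset the differences of ID1, ID3 and SMAD6, at -0.21, -0.30 and 0.33, were not called. On log2(TPM + 1) those of ID1 (adjusted p = 0.183), ID3 (adjusted p = 0.140) and BAMBI (-0.37, adjusted p = 0.114) were not called, where the median of all genes was 0.37. Without day 30 replicates 3, 4 and 5 those of ID1 (adjusted p = 0.0802) and ID3 (adjusted p = 0.204) were not called.

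The profiles of the genes over the 14 libraries fell closest for ID1 and BAMBI, whose centred log2 CPM differed by a root mean square of 0.12, then for ID1 and ID3 (0.15) and for SMAD6 and SMAD7 (0.19). The farthest pair was ID4 and SMAD7 (0.85). ID2 was at least 0.62 from each of the other 6. Among 11041 genes with a mean of at least 5 CPM, the nearest to ID1 were NBDY, GOT2 and TMEM214 and the nearest to ID2 were PPIF, CTSL and FICD, at 0.10 to 0.15 for ID2. ID3 was nearest to PTRH2, ID1 and TMEM208, and ID4 to SLC35G2, DOK5 and RCN1. SMAD6 was nearest to ENOPH1, RPAP1 and PANK4, SMAD7 to SPECC1L, XPO5 and DSE, and BAMBI to GOT2, TMEM214 and ID1. Likeness here is a description over libraries that share their days.

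Promoter windows of the 7 genes, from 250 bases before to 50 after the start, were read from RefSeq (GRCh38.p14), which gave 9 windows, 3 of them for SMAD7. They were searched on both strands for GTCTAGAC, the palindromic SMAD-binding element, GGCGCC, a GC-rich sequence bound by BMP SMADs, and CACCTG and CAGCTG, E-boxes of the kind bound by E protein dimers. GTCTAGAC occurred in 0.202% of all 35116 windows, GGCGCC in 19.2%, CACCTG in 20.6% and CAGCTG in 17.9%. The stretches that held a match are shown for 4 of the genes, with the match in capitals, from the plus strand at chr15:66702166-66702235 (SMAD6), chr10:28677301-28677351 (BAMBI), chr2:8681836-8681895 (ID2) and chr6:19837300-19837369 (ID4).
SMAD6: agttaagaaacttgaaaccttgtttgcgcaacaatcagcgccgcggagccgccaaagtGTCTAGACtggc
BAMBI: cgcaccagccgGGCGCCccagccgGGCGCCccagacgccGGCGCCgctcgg
ID2: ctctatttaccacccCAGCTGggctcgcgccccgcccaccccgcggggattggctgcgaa
ID4: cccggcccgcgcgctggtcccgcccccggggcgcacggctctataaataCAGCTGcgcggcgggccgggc

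Positions count back from the start of transcription in RefSeq. The GENCODE gene starts given above lie before it in ID2 (8678845 against 8682056), BAMBI (28677342 against 28677521) and SMAD6 (66702228 against 66702236). A match before the RefSeq start can thus lie within the GENCODE gene, as does CAGCTG in ID2. SMAD6 held GTCTAGAC at -12 to -5. BAMBI held GGCGCC 3 times between -209 and -176. The E-box CAGCTG lay at -205 to -200 in ID2 and at -21 to -16 in ID4, and 1 window of SMAD7 held CACCTG. No matches overlapped, and none of the 4 sequences was in the windows of ID1 and ID3, which says only that these letters are not in these windows.

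Among the ligands that drive the pathway, 3 of 11 tested rose, 4 fell and 4 were not called at day 45 against day 21 (median log2 change -0.63, against -0.05 for all genes). BMP6 rose to 25.1 ± 4.87 CPM at day 45 (SD, n = 5), against 1.73 ± 0.125 CPM at day 21 (SD, n = 4), a log2 fold change of 3.86 ± 0.23 (SE; edgeR adjusted p = 3.17e-10). GDF5, the ligand of forming joints, rose by 2.07 ± 0.20 (SE; edgeR adjusted p = 1.06e-07). BMP5 fell by 3.32 on the log2 scale, to 15.2 ± 4.40 CPM at day 45 (SD, n = 5), against 152 ± 13.97 CPM at day 21 (SD, n = 4), and BMP4 fell by 2.42. These counts are near the shares of all genes called higher and lower in that comparison. On log2(TPM + 1) the ligand counts were 3 higher and 6 lower. On that scale the median of all genes was -0.34. The shares of all genes given here and below are for counts with TMM scaling only.

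Of 11 receptors and co-receptors tested, 1 rose, 7 fell and 3 were not called at day 45 against day 21 (median -0.54). Of all genes tested, 27.1% were higher and 30.5% lower in that comparison. BMPR1B, the type I receptor of cartilage condensations, fell by 1.16 and ACVRL1, the receptor for BMP9 best known in blood vessels, by 2.01 on the log2 scale. ENG, a co-receptor, fell by 0.74, and RGMA, another co-receptor, by 0.54. Of 13 antagonists tested, 7 rose, 1 fell and 5 were not called (median 0.41). On log2(TPM + 1), with the median of all genes at -0.34, 5 were higher and 2 lower. NOG, which encodes the BMP trap noggin, had 13.1 ± 2.17 CPM at day 21, 56.4 ± 12.1 CPM at day 30 and 32.8 ± 3.95 CPM at day 45 (mean ± SD, n = 4, 5 and 5), with a peak at day 30 as for ID4. CHRDL1, a chordin-like BMP binder, rose by 2.01 ± 0.18 (SE) and FSTL3, a follistatin-like binder of activins, by 1.57 ± 0.19 (SE) at day 45 against day 21, while SOSTDC1 fell by 3.05 from a level of 2.09 ± 0.223 CPM at day 21.

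More of the other SMADs and their regulators fell than rose at day 30, and the reverse held at day 45 against day 30. Of 19 tested, 3 rose and 11 fell at day 30 against day 21 (median -0.43, against 0.02 for all genes), and 16 rose and none fell at day 45 against day 30 (median 0.51, against -0.04). At day 45 against day 21, 8 rose and 3 fell, where 27.1% of all genes were higher and 30.5% lower. On log2(TPM + 1) the counts there were 2 higher and 7 lower, with the median of all genes at -0.34. Without day 30 replicates 3, 4 and 5 the counts were 3 higher and 8 lower at day 30 against day 21, and 10 higher and none lower at day 45 against day 30. RNF11, a ubiquitin ligase partner, rose to 90.1 ± 3.34 CPM at day 45, against 45.05 ± 4.26 CPM at day 21, and PELO rose by 0.89 ± 0.10 (SE). SMAD3, a carrier of TGF-beta signals, fell by 0.67 and NEDD4L, a ubiquitin ligase, by 0.91 on the log2 scale.

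Of 16 other genes induced by BMP that were tested, 3 rose, 5 fell and 8 were not called at day 45 against day 21 (median -0.22), where 27.1% of all genes were higher and 30.5% lower. ATOH8, a helix-loop-helix factor, was called higher at both steps with TMM scaling, by 0.63 ± 0.11 (SE; edgeR adjusted p = 1.12e-04) at day 30 against day 21 and by 0.76 ± 0.10 (SE) at day 45 against day 30. As for ID2, its earlier step was not called on log2(TPM + 1) (adjusted p = 0.113). SP7, a bone factor, rose by 3.61 ± 0.30 (SE) at day 45 against day 21, from 0.781 ± 0.310 CPM to 9.62 ± 3.79 CPM (SD). MSX2 and DLX2, homeobox factors, fell by 0.98 and 0.86 on the log2 scale. On log2(TPM + 1) the list had 3 members higher and 9 lower at day 45 against day 21, with the median of all genes at -0.34.

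Of 12 genes induced by TGF-beta, the sister pathway that SMAD7 also restrains, 11 rose and 1 fell at day 45 against day 30 (median 0.93), and 8 rose and 1 fell at day 45 against day 21 (median 0.96). Of all genes, 27.6% were higher and 28.7% lower in the first of these comparisons, and 27.1% and 30.5% in the second. At day 45 against day 21 CCN2, a matricellular protein, rose by 3.57 ± 0.25 (log2, SE), TIMP3, an inhibitor of matrix proteases, by 1.80 ± 0.10 (SE) and BHLHE40, a helix-loop-helix repressor, by 1.55 ± 0.12 (SE). When day 45 replicate 1 was counted as day 30, 4 were higher and 1 lower at day 45 against day 30.

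E proteins, the partners that ID proteins bind, were lower at both later days than at day 21. All 3 fell at day 30 against day 21 (median -0.95), none was called at day 45 against day 30, and all 3 were lower at day 45 against day 21 (median -0.89). Of all genes, 27.1% were lower at day 30 against day 21 and 30.5% at day 45 against day 21. TCF4 averaged 38.5 ± 4.67 CPM at day 45 (SD, n = 5), against 134 ± 25.3 CPM at day 21 (SD, n = 4), a log2 fold change of -1.80 ± 0.21 (SE; edgeR adjusted p = 1.17e-06). TCF3 fell by 0.89 and TCF12 by 0.76 on the log2 scale. The 3 falls against day 21 were also called on log2(TPM + 1), with the length offset and without day 30 replicates 3, 4 and 5.

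Of 19 tissue helix-loop-helix factors listed, 7 were tested, and at day 45 against day 21, 2 rose, 2 fell and 3 were not called. These counts are near the shares of all genes in that comparison, 27.1% higher and 30.5% lower. SCX, a tendon factor, fell by 3.46 on the log2 scale, to 3.60 ± 0.515 CPM at day 45 (SD, n = 5), against 39.6 ± 5.12 CPM at day 21 (SD, n = 4). HEYL, a Notch target, fell by 1.67. BHLHE41, a repressor of the circadian clock, rose by 4.43 ± 0.29 (SE), from only 0.378 ± 0.224 CPM at day 21 (SD, n = 4). MSC, which stayed under 1 CPM on average at every day, was called at 2.24 ± 0.59 (SE; edgeR adjusted p = 0.00332) but not on log2(TPM + 1) (adjusted p = 0.121), where 1 of the 7 was higher and 5 lower. Of the 20 immediate early genes, 15 rose and 2 fell at day 45 against day 21 (median 1.52), against 12 and 4 on log2(TPM + 1). For both lists, the median of all genes on log2(TPM + 1) was -0.34 in this comparison. FOS rose by 2.79 ± 0.16 (SE), DUSP1 by 2.69 ± 0.14 (SE), JUNB by 2.14 ± 0.13 (SE) and FOSL1 by 5.38 ± 0.33 (SE). The FOSL1 rise was from only 0.322 ± 0.161 CPM at day 21 (SD, n = 4). The part of the immediate early genes in the changes of the ID genes was not tested.

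The counts of the separate steps stand beside 27.2% of all genes higher and 27.1% lower at day 30 against day 21, and 27.6% higher and 28.7% lower at day 45 against day 30. Of the ligands, 3 rose and 4 fell at day 30 against day 21, and 3 rose and 5 fell at day 45 against day 30. None of the receptors rose and 7 fell at the first step, and 3 rose and 3 fell at the second. For the antagonists the counts were 6 higher and 4 lower, then 5 higher and 5 lower. Other BMP-induced genes had 5 higher and 8 lower at the first step (1 and 10 on log2(TPM + 1)), then 4 higher and 2 lower. Genes induced by TGF-beta had 5 higher and 3 lower at the first step, but 3 and 6 on log2(TPM + 1). Immediate early genes had 11 higher and 4 lower, but 6 and 9 on that scale, and then 16 higher and none lower. On log2(TPM + 1) the median of all genes at the first step was -0.35, against 0.02 with TMM scaling. The shares of all genes above are for TMM scaling, so they are no measure for the counts on log2(TPM + 1). The tissue helix-loop-helix factors had 1 higher and 4 lower, then 4 higher and 2 lower. With day 45 replicate 1 placed at day 30, the second step had no ligand higher and 4 lower, and 1 antagonist higher and 3 lower.

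**Figure D4:**
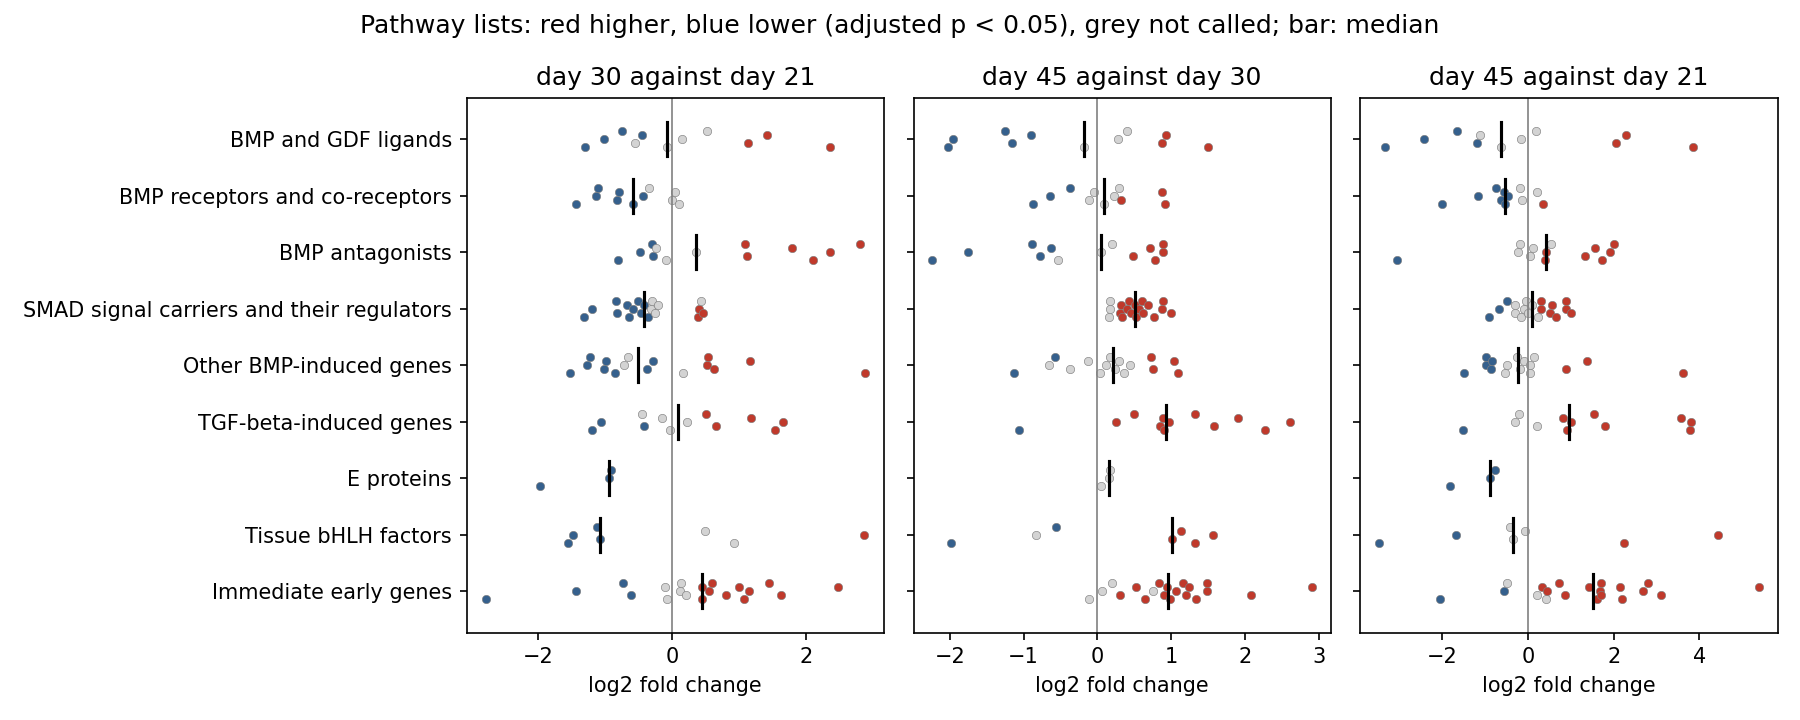
Log2 fold changes of each tested gene (points) in 9 lists of the pathway and its surroundings for the 3 comparisons of days, red for higher and blue for lower with an adjusted p below 0.05, grey for not called, with the median of each list as a bar. The SMAD list lies mostly below 0 at day 30 against day 21 and above 0 at day 45 against day 30, and the 3 E proteins lie below 0 in both comparisons with day 21.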

How the data were processed

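Whole-pellet RNA was extracted with an RNeasy micro kit and made into libraries using TruSeq RNA Library Prep Kit v2 reagents, per the labels' protocols; this kit does not mark strand. Reads were aligned with STAR 2.4.2a and counted with RSEM 1.2.25 on GRCh38, per the submitters' processing notes; no annotation release is named in the sources used here. Per the file headers, each deposited table gives an expected count, TPM and an effective length per gene. The deposited expected counts were rounded to whole numbers; depth was 18183776 to 33660704 per library. The deposited TPM were used for order and ratios between genes, and in limma after adding 1 or 0.1. The log2 fold changes were computed here and are not values from the authors.

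Of the identifiers, 60333 of 60587 had a symbol. Genes kept by filterByExpr (17838) were scaled by TMM and fitted in 1 edgeR 4.0.16 model with a mean per day over 14 libraries (R 4.3.3, robust quasi-likelihood F-test, Benjamini-Hochberg over all genes tested, threshold 0.05). The SE is the log2 fold change divided by the square root of F. Alternatives used limma 3.58.1 and DESeq2 1.42.0, other filters and scalings, a length offset (lowess span 0.3), left-out libraries and the other reading of the day 45 replicate 1 label. Replicate pairs differed by more than sampling noise (chi-square per degree of freedom 7.96 to 174). Same-numbered libraries did not deviate together (correlations -0.25 to 0.12 in 13 pairs), so numbers were not used as pairs. Up to 4 genes of each list were named, those with the smallest adjusted p at day 45 against day 21, and for each of the 7 genes the 3 nearest profiles. A gene that this rule names is not reported here. Genes and lists were chosen with earlier results of these data known.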

Additional observations from a re-analysis of the deposited data

Results flagged for a closer look

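ID4 in day 21 replicate 4 stood apart from the other libraries of its day, at 23.6 CPM against 18.4 to 19.1 CPM in the other 3. It was the only 1 of 21 groups (7 genes at 3 days) in which the highest or lowest library was this far from its nearest neighbour relative to the range of the group, and chance gives about 1 in 20. Leaving this library out ended no call of ID4.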

How the results depend on the processing

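The 27 alternatives include leaving out each of the 14 libraries in turn. Of 749 values of the 7 genes, 689 kept their direction and side of the threshold. Of the rest, 44 lost their call without turning, 9 gained one and 7 turned direction. A value that turned and also lost its call, as for ID1 and SMAD6 on the TPM scales, counts only as turned. The values that turned were, at day 45 against day 21, ID1 at -0.0300 on log2(TPM + 1) and -0.0302 on log2(TPM + 0.1) and SMAD6 at -0.12 on log2(TPM + 1) and -0.13 on log2(TPM + 0.1), none of them called; at day 45 against day 30 with the length offset, ID1 at 0.0633 and ID3 at 0.14; and ID2's later minus earlier change at -0.27 with day 45 replicate 1 placed at day 30. On both TPM scales 3 of the 7 genes were called at day 30 against day 21 and 3 at day 45 against day 21. Tested against a 1.5-fold change, 2 of the 7 and 3705 of all genes were called at day 30 against day 21, 1 and 3523 at day 45 against day 30, 2 and 4769 at day 45 against day 21, and 3 and 5782 for the later minus the earlier change. Without day 30 replicates 3, 4 and 5 the later minus earlier change called 5659 genes, and with day 45 replicate 1 placed at day 30, day 45 against day 30 called 6466. Leaving out 1 library gave 7, 4 to 6, 6 and 6 of the 7 genes called in these 4 tests in turn, and 8768 to 9938, 9031 to 10235, 9335 to 10460 and 8262 to 9623 of all genes. SMAD6 at day 45 against day 21 was not called without the low-count filter (adjusted p = 0.0527) or with day 45 replicate 1 placed at day 30 (adjusted p = 0.0717). With the replicate block 8872, 9519, 9728 and 8632 genes were called and no call of the 7 changed. For promoter windows of 250 bases before the start alone, the shares were 0.182% (GTCTAGAC), 16.4% (GGCGCC) and 17.5% (CACCTG), and CAGCTG was in 4911 of 35116 windows, with the same matches in the 7 genes. The causes were not tested. No value of the later minus earlier change could be fitted from only the days compared.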
